A study of Mus musculus with 6 samples.

Results

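The IL-1 and IL-18 receptor family was examined in mouse CD8+ T cells of the Tc17 and Tc1 types. Its members were taken by gene symbol: Il1r1, Il1r2, Il1rl1, Il1rl2, Il1rap, Il18r1, Il18rap and Sigirr, each read from the probe set that carried that symbol alone and had the highest mean over all arrays. Of the 8 genes 7 had such a probe set, among 22180 genes measured. Il1rl1, the gene of the IL-33 receptor ST2, had none and was not analysed here.

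Both groups began as sorted naive CD8+ T cells of the spleen, activated with antibodies to CD3 (1 µg/ml) and CD28 (3 µg/ml) over 4 days. Tc17 cultures, named for IL-17 production, received IL-6 and TGFb for 3 days, and Tc1 cultures, named for their interferon-gamma-producing type 1 state, received IL-12 for the same time. Both then had IL-2 for a further day. The labels give no strain, age or sex and no unpolarised group, so a difference between these cultures cannot be assigned to gain in one or loss in the other. Each group had 2 biological samples numbered 1 and 2 and a technical array also numbered 2, giving 6 Affymetrix arrays in all. The technical array was taken as a repeat of biological sample 2, which the labels do not spell out, and all means and SDs rest on that reading. The labels do not say whether samples 1 and 2 came from separate animals or cultures. The p-values therefore set a group difference against the spread between these samples, whatever its source. Limma moderated that spread with the variances of all probe sets.

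Receptors of this family carry immunoglobulin-like domains outside the cell and, in the signalling members, a TIR domain inside it, the module they share with Toll-like receptors. A ligand-binding chain takes up the cytokine and then recruits an accessory chain. The paired TIR domains gather the adaptor MyD88 and IRAK kinases, which lead through TRAF6 to NF-kappa-B and MAP kinases. In T cells IL-18 acts together with IL-12 to raise interferon-gamma production, and IL-1 promotes the IL-17-producing state. A decoy receptor, Il1r2, and an inhibitory one, Sigirr, limit these signals.

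The arrays gave RMA log2 intensities for 41345 probe sets, with medians from 6.04 to 6.09. The cultures matched their labels in the cytokine genes. Il17a measured 11.88 in Tc17 sample 1, with 10.99 and 11.35 in the repeat arrays of Tc17 sample 2, against 6.29 in Tc1 sample 1 and 6.34 and 6.35 in those of Tc1 sample 2. Ifng was 45.1-fold lower in Tc17 (limma adjusted p = 0.0056). Il17f, which encodes a relative of the Il17a product, had a log2 difference of 6.09. Of 9 measured CD8 T cell markers none passed. At an unadjusted limma p under 0.05, 2 were higher and 1 lower in Tc17, against 15.9% of all genes in either direction. Cd3e, Cd8a and Cd8b1 had log2 differences of 0.13, −0.13 and −0.03 and means between 12.78 and 13.05 in both groups. The surface receptor genes Cd5 and Cd2 had differences of 0.45 ± 0.10 and 0.44 ± 0.08 and the costimulator gene Cd28 one of −0.30 ± 0.08 (SE), each with non-overlapping groups.

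None of the 7 members passed limma's test at an adjusted p of 0.05 over all probe sets, a threshold that 1.58% of all genes passed. At an unadjusted p under 0.05 there were 6 of 7 members, 2 higher and 4 lower in Tc17, against 15.9% of all genes. In the same 6 the 3 Tc17 arrays lay entirely on one side of the 3 Tc1 arrays, as they did in 29.7% of all genes. A difference of 2-fold or more was seen in 3 of 7 members, namely Il18r1, Il18rap and Il1r1, against 2.06% of all genes. The median size of the log2 difference was 0.85 over the members and 0.09 over all genes. With 2 samples per group an exact two-sided permutation test of a single gene cannot go below p = 0.333.

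**Figure D1:**
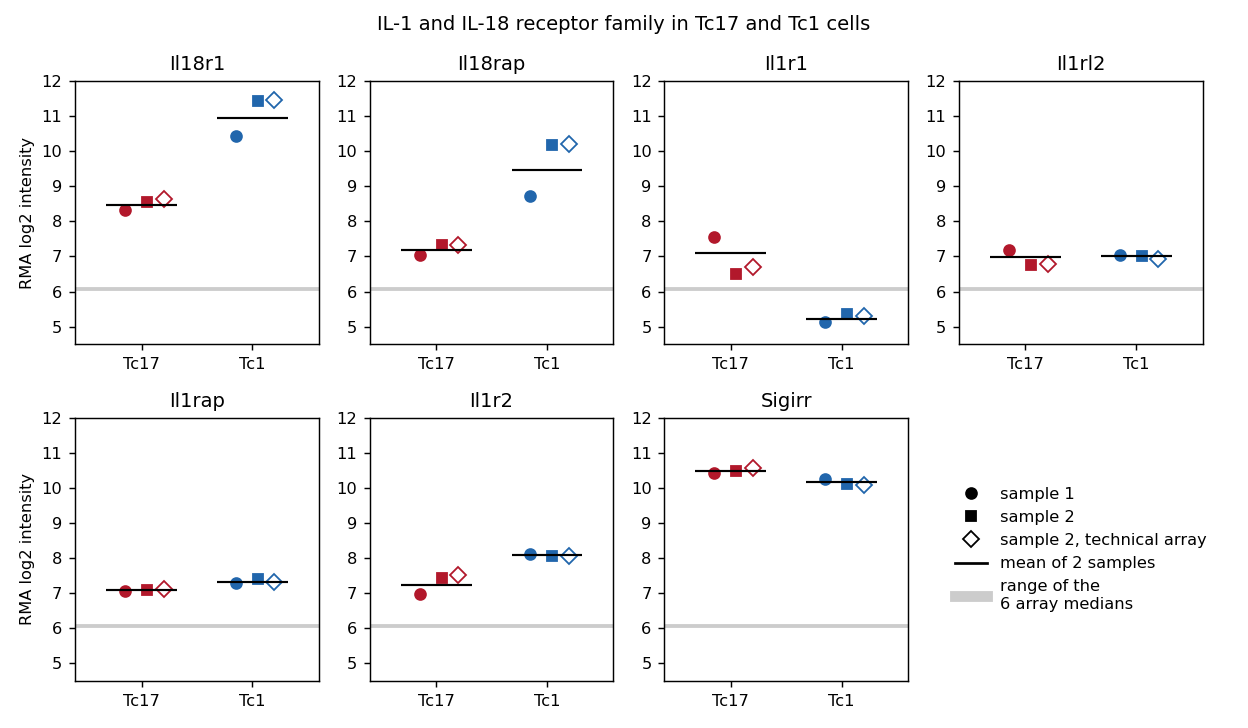
RMA log2 intensity (vertical axis) of each measured member in Tc17 and Tc1 cells, 1 point an array, with the technical array of sample 2 drawn open, the mean of the 2 samples as a black line and the range of the 6 array medians (6.04 to 6.09) as a grey band. Il18r1 and Il18rap are lower in every Tc17 array and Il1r1 higher, the Tc1 samples differ from each other in Il18r1 and Il18rap, and the Tc17 samples differ in Il1r1.

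The chains of the IL-18 receptor had the largest differences of the family, both towards lower levels in Tc17. Il18r1 encodes the chain that binds IL-18. It measured 8.33 in Tc17 sample 1, with 8.56 and 8.65 in the repeat arrays of Tc17 sample 2, against 10.43 in Tc1 sample 1 and 11.42 and 11.46 in those of Tc1 sample 2. All 3 Tc17 arrays were below all 3 Tc1 arrays, by a gap wider than the spread within either group. Its mean was 8.46 ± 0.20 in Tc17 and 10.94 ± 0.71 in Tc1 (log2, SD, n = 2 each). The log2 difference was −2.47 ± 0.35 (SE; 95% interval −3.40 to −1.55), 5.55-fold lower in Tc17, and did not reach the threshold (limma adjusted p = 0.0744). It passed without Tc1 sample 1 (−2.98, limma adjusted p = 0.0412) and in no other fit that left out a sample. In such fits 1 group holds a single sample, which is assumed to vary like the pair of the other group. The spread then comes from that pair and, through limma's moderation, from the variances of all probe sets.

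Il18rap encodes the accessory chain, which does not hold the cytokine on its own and completes the signalling complex. Its levels were 7.04 in Tc17 sample 1, with 7.34 and 7.33 in the repeat arrays of Tc17 sample 2, against 8.72 in Tc1 sample 1 and 10.17 and 10.21 in those of Tc1 sample 2. The groups again did not overlap, and within Tc1 the samples stood 1.47 log2 units apart while the 2 arrays of sample 2 were 0.04 apart. The means were 7.19 ± 0.21 in Tc17 and 9.46 ± 1.04 in Tc1 (log2, SD, n = 2 each), a difference of −2.27 ± 0.50 (SE; 95% interval −3.58 to −0.96) or 4.82-fold lower. The limma adjusted p was 0.169. The difference was −3.00 without Tc1 sample 1 (limma adjusted p = 0.0429) and −1.53 without Tc1 sample 2 (adjusted p = 0.116).

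The split between the Tc1 samples was shared by both chains. Il18r1 was 1.01 and Il18rap 1.47 log2 units lower in Tc1 sample 1 than in Tc1 sample 2, while the technical arrays differed from their sample by 0.04 in each. In Tc17 the corresponding gaps between samples were 0.28 and 0.29. Among the other 5 members the gap between the Tc1 samples was between 0.05 and 0.19.

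Likeness of profile was measured as the Euclidean distance between log2 values centred on each gene's mean over the 6 arrays, among 19310 genes with an established symbol. By this measure Il18r1 was the nearest gene to Il18rap (distance 0.415), and Il18rap the nearest but 2 to Il18r1, after F2rl2 (0.248) and Sult2b1 (0.373). The log2 differences were −2.31 for F2rl2, which encodes a thrombin receptor, and −2.35 for Sult2b1, which encodes a sulfotransferase. After Il18r1, the genes nearest to Il18rap were Anxa1, which encodes annexin A1 (0.444), and F2rl2 (0.452). Anxa1 measured 5.11 in Tc17 sample 1, with 5.15 and 5.23 in the repeat arrays of Tc17 sample 2, against 6.63 in Tc1 sample 1 and 8.45 and 8.48 in those of Tc1 sample 2. None of these genes passed limma's test (adjusted p = 0.0797 for F2rl2, 0.0666 for Sult2b1 and 0.218 for Anxa1). The points are 4 samples and 2 repeat arrays of the same 2 groups, so closeness rests on the group difference and on the order of the Tc1 samples.

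**Figure D2:**
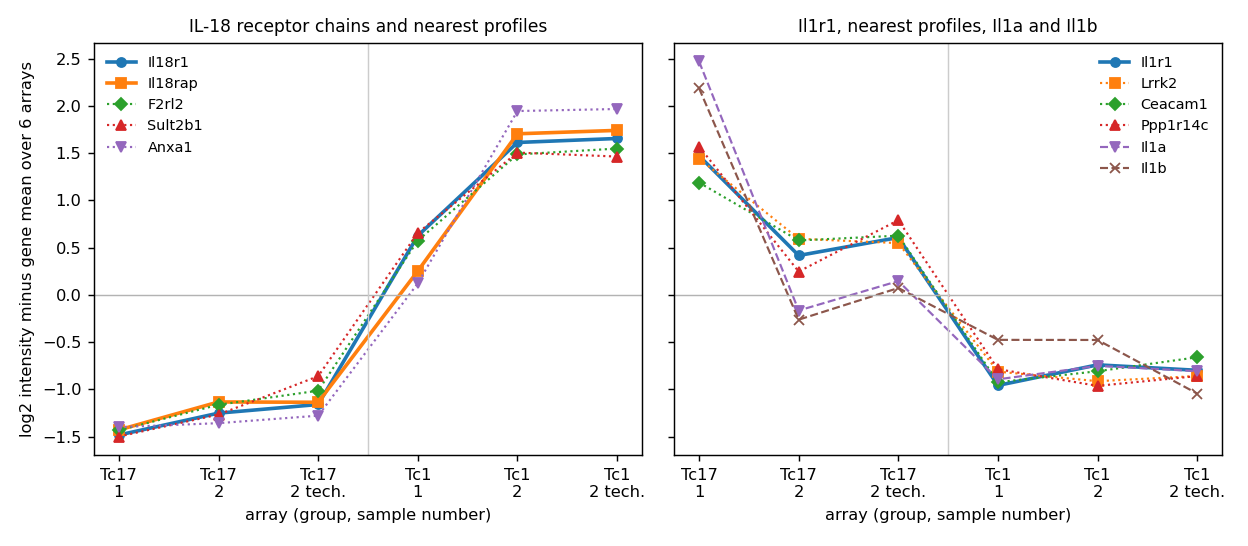
Log2 intensity minus the gene's mean over 6 arrays (vertical axis) on each array (horizontal axis, with the technical array of sample 2 marked as tech.), for the IL-18 receptor chains with their nearest profiles on the left, and for Il1r1 with its nearest profiles and the ligand genes Il1a and Il1b on the right. Lines only join the arrays of 1 gene; Il18r1 and Il18rap run together through the step between Tc1 samples 1 and 2, and Il1r1, Il1a and Il1b are highest in Tc17 sample 1.

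Il1r1, higher in Tc17, encodes the signalling receptor of IL-1 alpha and IL-1 beta. It measured 7.57 in Tc17 sample 1, with 6.51 and 6.70 in the repeat arrays of Tc17 sample 2, against 5.14 in Tc1 sample 1 and 5.35 and 5.30 in those of Tc1 sample 2. Every Tc17 array was above every Tc1 array, and Tc17 sample 1 was 0.96 above Tc17 sample 2. The means were 7.09 ± 0.68 in Tc17 and 5.23 ± 0.13 in Tc1 (log2, SD, n = 2 each). The log2 difference was 1.86 ± 0.33 (SE; 95% interval 0.99 to 2.72), 3.62-fold higher in Tc17 (limma adjusted p = 0.118). The Tc1 mean lay below every array median and no array gave a detection call, so the fold holds for intensities and signal above background in Tc1 was not shown. The difference was 2.34 without Tc17 sample 2 (limma adjusted p = 0.04) and 1.38 without Tc17 sample 1 (adjusted p = 0.102).

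Lrrk2, a kinase gene, Ceacam1, an adhesion receptor gene, and Ppp1r14c, the gene of a phosphatase inhibitor, had the profiles nearest to Il1r1, at distances of 0.301, 0.362 and 0.394. Their log2 differences were 1.86, 1.72 and 1.89, and none passed (limma adjusted p = 0.0951, 0.0584 and 0.132). Like Il1r1 they were higher in Tc17 sample 1 than in Tc17 sample 2. Lrrk2 measured 7.79 in Tc17 sample 1, with 6.95 and 6.90 in the repeat arrays of Tc17 sample 2, against 5.54 in Tc1 sample 1 and 5.44 and 5.49 in those of Tc1 sample 2.

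Il1r2, the gene of the decoy receptor that binds IL-1 without signalling, was lower in Tc17. It measured 6.98 in Tc17 sample 1, with 7.44 and 7.51 in the repeat arrays of Tc17 sample 2, against 8.12 in Tc1 sample 1 and 8.05 and 8.06 in those of Tc1 sample 2. The groups did not overlap, and the sample with the most Il1r1 signal, Tc17 sample 1, had the least Il1r2 signal. The log2 difference was −0.85 ± 0.18 (SE; 95% interval −1.33 to −0.38), 1.81-fold lower (limma adjusted p = 0.16). It was −0.60 without Tc17 sample 1 and −1.10 without Tc17 sample 2, and passed in neither.

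Il1rap, which encodes the accessory chain shared by the IL-1, IL-33 and IL-36 receptors, differed little. It measured 7.07 in Tc17 sample 1, with 7.10 and 7.11 in the repeat arrays of Tc17 sample 2, against 7.30 in Tc1 sample 1 and 7.40 and 7.31 in those of Tc1 sample 2. The Tc17 arrays lay below the Tc1 arrays, and the log2 difference was −0.24 ± 0.07 (SE; 95% interval −0.43 to −0.05; limma adjusted p = 0.29). Its 2 other probe sets had differences of −0.18 and −0.14 and means below every array median.

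Il1rl2, the gene of the IL-36 receptor, showed overlapping groups. It measured 7.19 in Tc17 sample 1, with 6.76 and 6.79 in the repeat arrays of Tc17 sample 2, against 7.05 in Tc1 sample 1 and 7.03 and 6.93 in those of Tc1 sample 2. One Tc17 sample was above the Tc1 arrays and the other below them. The log2 difference was −0.03 ± 0.16 (SE; 95% interval −0.44 to 0.38; limma adjusted p = 0.961).

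Sigirr encodes a receptor of the family that restrains IL-1, IL-18 and Toll-like receptor signalling. It measured 10.43 in Tc17 sample 1, with 10.49 and 10.58 in the repeat arrays of Tc17 sample 2, against 10.27 in Tc1 sample 1 and 10.12 and 10.07 in those of Tc1 sample 2. The groups did not overlap but were close: the log2 difference was 0.30 ± 0.10 (SE; 95% interval 0.04 to 0.55), 1.23-fold higher in Tc17 (limma adjusted p = 0.31).

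**Figure D3:**
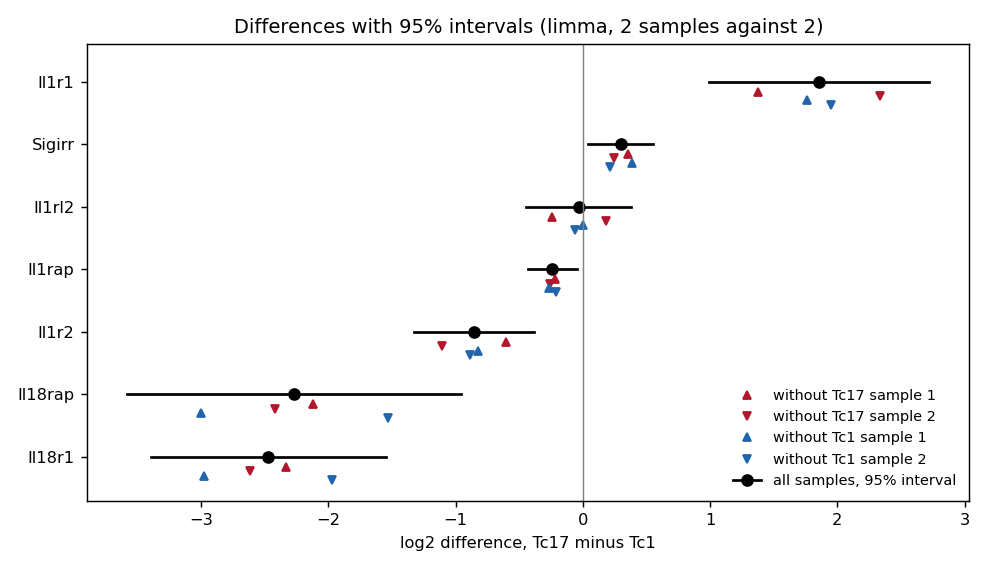
Log2 difference, Tc17 minus Tc1 (horizontal axis), of each measured member with its 95% interval from limma (black) and, as triangles below it, the difference after leaving out each biological sample. Il1r1 stays above 0 and Il18r1, Il18rap, Il1r2 and Il1rap stay below 0 in every fit drawn, and Il1rl2 lies on both sides. Only Il1rl2 has overlapping groups, so only its sign could change when a sample is left out.

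Il1r2, Il1r1, Il1rl2, Il1rl1, Il18r1 and Il18rap lie in this order on mouse chromosome 1, with 2 other genes and no other protein-coding gene between them in the RefSeq table of GRCm38.p6. Il1rap is on chromosome 16 and Sigirr on chromosome 7. The 5 clustered genes that were measured did not share a direction: Il1r2 was lower, its neighbour Il1r1 higher, Il1rl2 near 0, and Il18r1 and Il18rap lower in Tc17. None of the 10 genes with a probe set beside the cluster, 5 on each side, passed limma's test. Rfx8 and Map4k4, 2 of the 10, had an unadjusted p under 0.05, against 15.9% of all genes. The log2 differences of the 10 were between −0.12 (Slc9a4, an ion exchanger gene) and 0.63 (Rfx8, a gene of the RFX factor family). Map4k4, a kinase gene, had a difference of 0.42 ± 0.14 (SE; limma adjusted p = 0.329). Gm16894, which is directly before Il1r2, had a difference of 0.01. The remaining neighbours, Gm3646, 1700066B17Rik, Slc9a2, Mfsd9, Tmem182 and 4930448I06Rik, lay between −0.07 and 0.07.

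**Figure D4:**
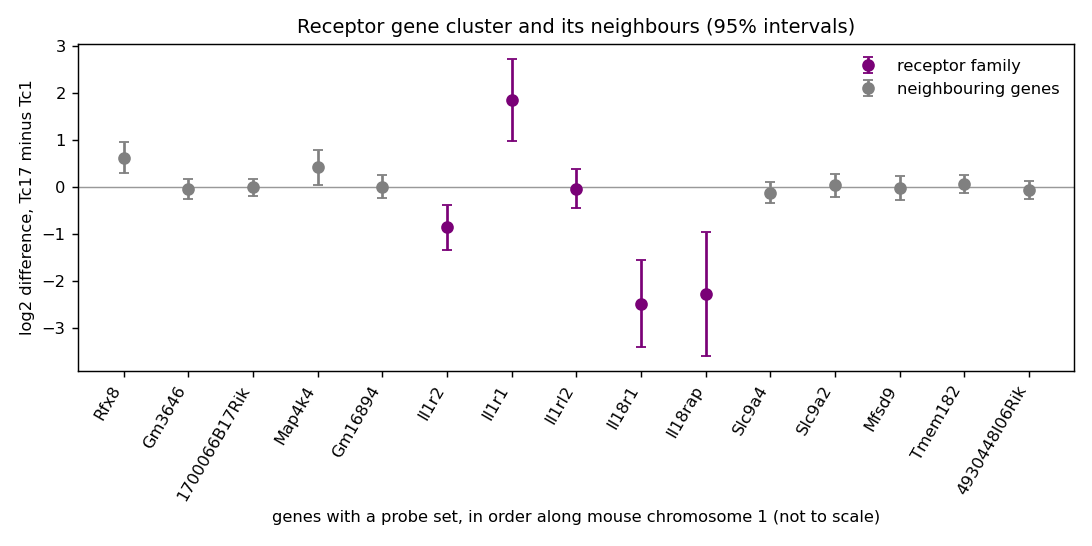
Log2 difference, Tc17 minus Tc1 (vertical axis), with 95% intervals from limma, for the receptor genes of the chromosome 1 cluster (purple) and the 5 measured genes on each side (grey), in gene order and not to scale. The largest differences are those of Il18r1, Il18rap, Il1r1 and Il1r2, and the grey points lie between −0.12 and 0.63. Most of the grey genes have means below every array median in both groups.

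RefSeq promoter entries (GRCm38.p6) were found for 7 of the 8 genes, with 11 start sites in all and none for Sigirr. The sequences before the first starts of Il18r1 and Il18rap are shown because these adjacent genes had the largest differences and the closest profiles. Il18r1 begins shortly after Il1rl1 ends on the same strand, and its stretch was cut at that end, so that it holds the 133 bases at chr1:40465419-40465551, plus strand. The stretch of Il18rap holds the 250 bases at chr1:40515112-40515361, plus strand.
Il18r1: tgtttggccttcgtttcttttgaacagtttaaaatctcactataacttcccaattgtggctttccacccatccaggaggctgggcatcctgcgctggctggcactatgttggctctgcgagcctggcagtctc
Il18rap: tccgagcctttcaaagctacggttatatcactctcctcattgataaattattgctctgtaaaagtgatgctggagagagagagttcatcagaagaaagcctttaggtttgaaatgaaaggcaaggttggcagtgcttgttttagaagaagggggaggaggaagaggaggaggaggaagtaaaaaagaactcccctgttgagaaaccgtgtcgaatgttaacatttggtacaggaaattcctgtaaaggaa

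The motifs searched, on both strands and in the 250 bases before each start, were TTCNNNGAA, read by STAT factors, GGTGTGA, a T-box core, and TGANTCA, read by AP-1. The stretches above hold none of them, so no letters are in capitals there. In the 11 windows TTCNNNGAA was found in 2, against 7.02% of 32851 promoter windows, and GGTGTGA and TGANTCA in 0, against 3.33% and 6.75%. The matches are before the third listed start of Il18r1 (2 matches), which lies after its first start, and before the start of Il1r2 (1 match). They are shown with the matching letters in capitals, all on the plus strand. A match is a run of letters and does not show that a factor binds there.
Il18r1, chr1:40465779-40465803: ggggttagTTCTGGGAActgtggag
Il18r1, chr1:40465846-40465870: tacaggtcTTCCCAGAActgaaagc
Il1r2, chr1:40085974-40085998: ggtgctttTTCAAGGAActtccgac

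Among regulators linked to these receptors and cultures, Tbx21, which encodes T-bet, was lower in Tc17. It measured 8.56 in Tc17 sample 1, with 8.67 and 8.63 in the repeat arrays of Tc17 sample 2, against 11.42 in Tc1 sample 1 and 11.33 and 11.39 in those of Tc1 sample 2 (6.90-fold lower, limma adjusted p = 0.0027). Its Tc1 arrays were within 0.09 of each other, so it did not show the step between Tc1 samples seen in Il18r1 and Il18rap. Stat4, the gene of the factor that IL-12 activates, had a difference of −0.07 with overlapping groups. Il12rb2, a chain of the IL-12 receptor, had a difference of −1.16 ± 0.24, Eomes, a T-box factor gene, one of −1.18 ± 0.15 and Gata3, a type 2 factor gene, one of −0.53 ± 0.19 (SE). None of these 3 passed (limma adjusted p = 0.158, 0.0583 and 0.354). At an unadjusted limma p under 0.05 the list had 4 genes higher and 5 lower in Tc17, against 15.9% of all genes in either direction. The higher ones were Stat3, the gene of the factor that IL-6 activates (0.50 ± 0.07), the nuclear receptor gene Rora (0.75 ± 0.15), and Irf4 and Batf (0.33 ± 0.12 and 0.33 ± 0.10 SE), which encode factors of T cell activation. None of these 4 passed (limma adjusted p = 0.0802, 0.156, 0.371 and 0.279). Of the 11 measured genes in this list 1 was lower and 0 higher past the adjusted threshold, and the median difference was −0.07, beside −0.01 over all genes. Tbx21, Irf4, Batf and the IL-12 receptor gene Il12rb1 were higher in Tc1 sample 1 than in Tc1 sample 2. The other genes of the list were lower in Tc1 sample 1, as were Il18r1 and Il18rap. Among these others the largest Tc1 SDs were 0.30 (Stat4), 0.23 (Gata3), 0.20 (Rora) and 0.17 (the factor gene Runx3). Those of Il18r1 and Il18rap were 0.71 and 1.04. Whether these factors act on the receptor genes was not tested.

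The ligands and their antagonists gave no call in limma among 11 measured genes, with a median difference of 0.00. Only 1 gene, Il1rn, had an unadjusted p under 0.05, against 15.9% of all genes. In 7 of the 11 both group means were below every array median. Il1a, the gene of IL-1 alpha, measured 8.16 in Tc17 sample 1, with 5.52 and 5.83 in the repeat arrays of Tc17 sample 2, against 4.80 in Tc1 sample 1 and 4.94 and 4.88 in those of Tc1 sample 2. Il1b, the gene of IL-1 beta, measured 7.94 in Tc17 sample 1, with 5.49 and 5.82 in the repeat arrays of Tc17 sample 2, against 5.28 in Tc1 sample 1 and 5.27 and 4.71 in those of Tc1 sample 2. Both ligands therefore stood above the array medians in 1 sample, the one that also had the most Il1r1 signal. Their log2 differences of 2.07 ± 0.82 and 1.66 ± 0.76 (SE) missed the threshold (limma adjusted p = 0.396 and 0.464). Il1a, Il1b and Il1r1 passed without Tc17 sample 2. There Tc17 sample 1, already the highest, stands alone. The spread comes from the Tc1 pair and limma's moderation, so that fit adds no evidence beyond the values above. Il1rn, which encodes the IL-1 receptor antagonist, had a difference of 0.27 and Il18bp, the gene of the soluble IL-18 binding protein, one of −0.28. Il18 had a difference of −0.25. Il33 had one of 0.00. For Il1rn, Il18 and Il33 both group means were below every array median.

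Markers of other cells were read beside these values. Of 12 measured myeloid markers 6 had an unadjusted p under 0.05, all higher in Tc17, and 1, Lyz2 (lysozyme), passed (11.5-fold, limma adjusted p = 0.0059). Among all genes 15.9% had such an unadjusted p and 1.58% passed. Without Tc1 sample 2 Lyz2 missed the threshold at a log2 difference of 3.53, in a fit that passed fewer probe sets in all. The mean level of the 12 markers per array was 6.79 to 7.10 in Tc17 and 6.28 to 6.36 in Tc1. Clec7a, the gene of the myeloid receptor dectin-1, measured 8.23 in Tc17 sample 1 and 6.83 in Tc17 sample 2, against 5.59 in Tc1 sample 1 and 5.37 in Tc1 sample 2 (each sample 2 as the mean of its arrays). Besides Lyz2 and Clec7a, the 6 held Mpeg1 (log2 difference 0.77), Adgre1 (0.38), Csf1r (0.28) and Cd14 (0.25), each with all Tc17 arrays above all Tc1 arrays. The means of Mpeg1, Adgre1 and Cd14 were below every array median in both groups. Of the 12 differences 10 were above 0 and 2 below, those of Cd68 (−0.14) and S100a9 (−0.01). Itgax, Cst3, S100a8 and Itgam had differences of 0.40, 0.18, 0.09 and 0.09. Of 9 mast cell and basophil markers Kit alone passed (2.49-fold higher, limma adjusted p = 0.0133). It did not pass with a sample left out, at log2 differences of 1.24 to 1.39, in fits that passed fewer probe sets in all. The other 8 markers were below every array median in both groups, among them Mcpt8 and Tpsb2 with differences of 0.11 and 0.10. The part of other cells in the values of Il1r1, Il1r2, Il1a and Il1b was not tested. In whole cultures, fewer cells with a transcript and less transcript per cell cannot be told apart.

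Natural killer and innate lymphoid markers, B cell markers and CD4 T cell markers gave no call in limma among 7, 6 and 3 measured genes. An unadjusted p under 0.05 was found in 3, 1 and 0 of them, all higher in Tc17, against 15.9% of all genes. The mean level per array of the natural killer and innate lymphoid markers was 5.64 to 5.81 in Tc17 and 5.43 to 5.51 in Tc1. Of these markers Ncr1, Klrb1c, Klrb1b, Il5 and Hpgds had differences of 0.01, 0.045, −0.06, 0.05 and 0.36. Their means were below every array median in both groups. Tyrobp, a signalling adaptor gene, had a difference of 0.49, and the B cell markers Cd79b and Ms4a1 had 0.52 and −0.06. The CD4 T cell markers Zbtb7b and Cd40lg had differences of −0.13 and −0.24. Fcer1g, the gene of a signalling chain used by Fc and natural killer receptors, differed by 1.19 ± 0.21 on the log2 scale (SE; limma adjusted p = 0.121).

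Downstream of the receptors, none of 21 adaptors and kinases passed, 11 of their differences were above 0 and 10 below, and their median was 0.01. At an unadjusted limma p under 0.05 there were 4 higher and 3 lower in Tc17, against 15.9% of all genes in either direction. Myd88, the adaptor of the whole family, had a difference of −0.17, Irak1 one of 0.14 and Irak2 one of −0.11. Traf6, the ubiquitin ligase that links the IRAK kinases to NF-kappa-B, measured 11.53 in Tc17 sample 1, with 11.10 and 11.22 in the repeat arrays of Tc17 sample 2, against 10.65 in Tc1 sample 1 and 10.44 and 10.42 in those of Tc1 sample 2 (difference 0.80 ± 0.16 SE, limma adjusted p = 0.145). Map3k8, a MAP kinase kinase kinase gene, had a difference of −0.72 ± 0.15 (SE, limma adjusted p = 0.153). Both genes had non-overlapping groups.

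Genes of NF-kappa-B and its feedback inhibitors gave no call among 15 measured, with 12 of 15 differences above 0 and a median of 0.20. At an unadjusted limma p under 0.05 there were 4 higher and 0 lower in Tc17, against 15.9% of all genes in either direction. The largest were those of Zc3h12a, which encodes the RNA-degrading feedback enzyme regnase-1 (0.63 ± 0.18), and Tnfaip3, which encodes A20 (0.51 ± 0.19 SE). Neither passed (limma adjusted p = 0.268 and 0.375). Nfkbiz, the gene of I-kappa-B-zeta, had a difference of 0.37.

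In the inflammasome and cytokine-processing list 1 of 10 measured genes passed, lower in Tc17: Casp1, the protease that matures IL-1 beta and IL-18. It measured 5.37 in Tc17 sample 1, with 5.15 and 4.96 in the repeat arrays of Tc17 sample 2, against 7.16 in Tc1 sample 1 and 6.69 and 6.82 in those of Tc1 sample 2. The Tc17 mean was below every array median, and the log2 difference was −1.75 ± 0.18 (SE, limma adjusted p = 0.0382), 3.35-fold lower. With each sample left out in turn the log2 difference was −1.95 to −1.55 and did not pass. Those fits passed fewer probe sets in all than the reported fit. Casp4, the mouse caspase-11 gene, had a difference of −1.52 and Gsdmd, the gene of the pore-forming protein that these caspases cleave, one of −0.39, both short of the threshold (limma adjusted p = 0.189 and 0.203). Pycard and Aim2, which encode an inflammasome adaptor and a DNA sensor, had differences of −0.07 and −0.19, and the list's median was −0.06. In this list 0 genes were higher and 3 lower at an unadjusted limma p under 0.05, against 15.9% of all genes in either direction.

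Toll-like receptors and their adaptors, which use the same TIR module, had 1 gene past the threshold among 16 measured, and their median was 0.05. Of the 16, 4 were higher and 2 lower at an unadjusted limma p under 0.05, against 15.9% of all genes in either direction. Tirap, a bridging adaptor for MyD88, was higher in Tc17 by 0.68 ± 0.07 on the log2 scale (SE, limma adjusted p = 0.0408), 1.61-fold. It did not pass with any sample left out, at log2 differences of 0.66 to 0.71, in fits that passed fewer probe sets in all. Ticam1, which encodes the adaptor TRIF, and Tlr6 had differences of 0.65 ± 0.14 and −0.79 ± 0.14 (SE) and missed the threshold (limma adjusted p = 0.16 and 0.117). The receptor-like genes Il1rapl1 and Il1rapl2, known from nerve cells, were below every array median in both groups.

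**Figure D5:**
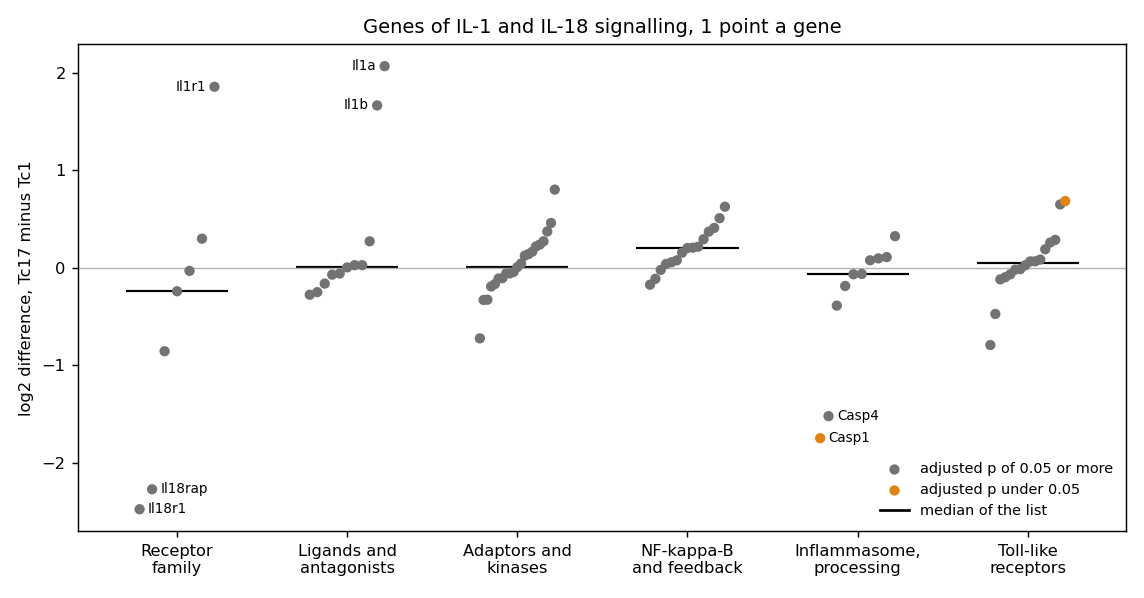
Log2 difference, Tc17 minus Tc1 (vertical axis), of each measured gene in the receptor family and in 5 lists of IL-1 and IL-18 signalling, with the list median as a black line and genes past a limma adjusted p of 0.05 in orange. Genes with a difference of 1 or more in size are named; Casp1 and Tirap are the 2 orange points, and most downstream genes lie near 0.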

How the data were processed

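The deposited values were log2 intensities. The submitters' processing notes name RMA and Partek, without versions. RMA corrects background, normalizes arrays by quantiles and summarizes probes per probe set. Genome build and annotation release are not given in the sources used here.

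Each technical array was averaged with sample 2 of its group, leaving 2 samples per group. Limma 3.58.1 in R 4.3.3 (lmFit, eBayes, two-sided) compared Tc17 with Tc1 over all 41345 probe sets without a filter, with Benjamini-Hochberg adjustment over all of them. The fit had 2 residual and 2.63 prior degrees of freedom. It was also run on simulated data with variances drawn from its own fitted prior. That run cannot show whether the model holds for the real samples. Platform annotation named 23521 probe sets with 1 symbol. Members, gene lists and tests were chosen with earlier results of these data known. Named were all members, all cluster neighbours, up to 5 called and the 2 largest uncalled genes of each list, a few fixed regulators and the 3 nearest profiles of Il18r1, Il18rap and Il1r1. Other genes were named after their values were seen. The number of arrays limits precision. Figures used matplotlib 3.10.9.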

Additional observations from a re-analysis of the deposited data

How the results depend on the processing

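The count of family members past the adjusted threshold changed with the estimate of the spread, with the arrays or samples used and with the number of probe sets adjusted for. Directions held, except for Il1rl2. It was 0 of 7 in the reported fit, 4 with 6 arrays as separate samples or with the biological sample as a random block, 3 with the replicate number as a block (replicate block), 1 with probe sets at or above the median level alone, and 0 to 2 with a sample left out. All probe sets past the threshold numbered 418 in the reported fit, 2318, 2074, 1535 and 648 in the first 4 of these and 0 with an unmoderated variance. Il18r1 passed with differences of −2.60, −2.58, −2.47 and −2.47 in those 4. Il18rap passed with −2.47, −2.44 and −2.27, and Il1r1 with 1.66, 1.69 and 1.86, in the first 3, and Il1r2 with −0.76 and −0.77 in the first 2. Leaving out samples gave −2.98 to −1.97 for Il18r1, −3.00 to −1.53 for Il18rap and 1.38 to 2.34 for Il1r1. Each of those fits passed fewer probe sets in all than the reported fit. Il1rl2 ran from −0.24 to 0.18 and was above 0 (0.0030 and 0.18) without Tc1 sample 1 or Tc17 sample 2. The other members kept their direction in every fit. Their groups do not overlap, so leaving out a sample or array, or changing the estimate of the spread, could not reverse it. Technical arrays treated as separate samples give sample 2 more weight than sample 1. They also enter as independent although they repeat a sample. The SE of Il18rap was 0.50 in the reported fit and 0.39 with 6 arrays as separate samples. Members that passed in that fit did so without any further biological sample. The same sample number is not stated to mark a shared origin, and deviations of same-numbered samples correlated at 0.313 across probe sets.

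Of 98 refitted member differences 81 kept direction and side of the threshold, 15 passed newly and 2 changed sign. Quantile normalization, median centring, leaving out technical arrays, trend and robust settings, an unmoderated variance and averaging the probe sets of each gene changed no member's call. With an unmoderated variance no probe set passed at all, so that setting could not add a call. Averaging probe sets changed the difference of Il1rap alone, the only member with more than 1. Among 73 pathway genes 2 passed in the reported fit, 9 with 6 separate arrays or the random block, 6 with the replicate block, 1 without the technical arrays, with quantile normalization, with trend and robust settings or at the median level or above (52 genes left), 0 with an unmoderated variance, and 0 to 2 with a sample left out. Beside the cluster 1 gene, Rfx8, passed with 6 separate arrays or the random block and 0 otherwise. Where a group mean lies below the array medians, as for Il1r1 in Tc1, signal over background limits the fold.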
